A study of Mus musculus with 12 samples.

Results

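Cytosolic sulfotransferases (Sult enzymes) move a sulfonate group onto phenols, steroids, catecholamines and thyroid hormones, which makes these small molecules more soluble and usually ends their activity. The donor of that group is PAPS (3'-phosphoadenosine 5'-phosphosulfate), which PAPS synthases build from ATP and inorganic sulfate taken up by the cell. The intestine carries several of these enzymes, and they act there on dietary phenols, drugs and locally made amines before these enter the blood. The genes described here are 5 cytosolic sulfotransferases, Sult1a1, Sult1b1, Sult1c2, Sult1d1 and Sult2b1, and the PAPS synthase Papss2. They were taken by symbol from the adult gene table and matched by Entrez Gene identifier to the neonate table, and all 6 of 6 listed genes were found, among 23319 genes present in both tables.

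The samples were whole, pulverized small intestines of C57BL/6 mice with an intestinal knockout (KO) of NCoR1, a corepressor that nuclear receptors recruit to their target genes, and of wild type (WT) mice. The 4 groups were KO adults and WT adults at 10 weeks, and KO neonates and WT neonates at post natal day 12, with 3 libraries each. Each library pooled RNA of 2 mice, so a group holds 6 mice, and the spread given is between pools. The labels call the deletion intestinal and state no promoter that drives it, and the strain names F/FUN and DIECUN stand unexplained in the design text. No allele or agent is named that all groups share.

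Reads in genes ranged from 5930748 to 13057329 per library and made up 45.1% of the RPKM library total in WT adults replicate 3, against at least 50.6% in the other 11. Ncor1 itself averaged 164 ± 4.27 CPM in KO adults and 245 ± 6.39 CPM in WT adults, and 231 ± 16.1 CPM in KO neonates and 453 ± 6.26 CPM in WT neonates, and the labels do not say which exons were deleted (CPM, counts per 1e+06 reads in genes; SD, n = 3 each). All 9 enterocyte markers were present in every group, with sums from 46870 to 51410 CPM in KO adults, 43590 to 49450 CPM in WT adults, 59770 to 62840 CPM in KO neonates and 60450 to 64060 CPM in WT neonates. Apoa4 alone averaged 44710 CPM in KO neonates and 48600 CPM in WT neonates, so the neonatal sums mostly follow that gene. All 6 markers of squamous epithelium, another known site of Sult2b1, averaged under 1 CPM in each group, with Krt6a at 0 in all 4. Pancreatic enzyme genes varied widely between libraries of a group, summing to 272 to 1852 CPM in KO adults and 1720 to 5152 CPM in WT adults. In whole tissue, fewer cells of a type and less RNA per cell cannot be told apart.

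Sult1d1 was higher in KO intestine at both ages, about 1.5-fold in adults and 2-fold in neonates, and it was the most abundant sulfotransferase per kilobase in KO adults, KO neonates and WT neonates, and level with Sult1b1 in WT adults. Its genomic neighbour Sult1b1 moved in opposite directions at the 2 ages, slightly down in KO adults, a call that other scalings did not keep, and slightly up in KO neonates. Sult2b1 and Papss2 differed between ages far more than between genotypes. Sult1a1 and Sult1c2 were scarce in every group. With differences called at an adjusted p under 0.05 (limma on log2(CPM + 1), Benjamini-Hochberg over all genes tested), 1 of the 6 genes was called higher and 2 lower in KO adults, where 5.5% of 13463 tested genes were called higher and 13.9% lower, 19.4% in all. In KO neonates 3 were called higher and 0 lower, where 5.21% of 14215 tested genes were called higher and 16% lower, 21.2% in all. All 6 genes passed the filter of at least 1 CPM in at least 3 libraries in both ages. The median log2 difference of all genes tested was -0.11 in both ages with this scaling and -0.01 with TMM factors (an edgeR scaling that discounts very abundant genes), so small negative differences lie near the middle of all genes.

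**Figure D1:**
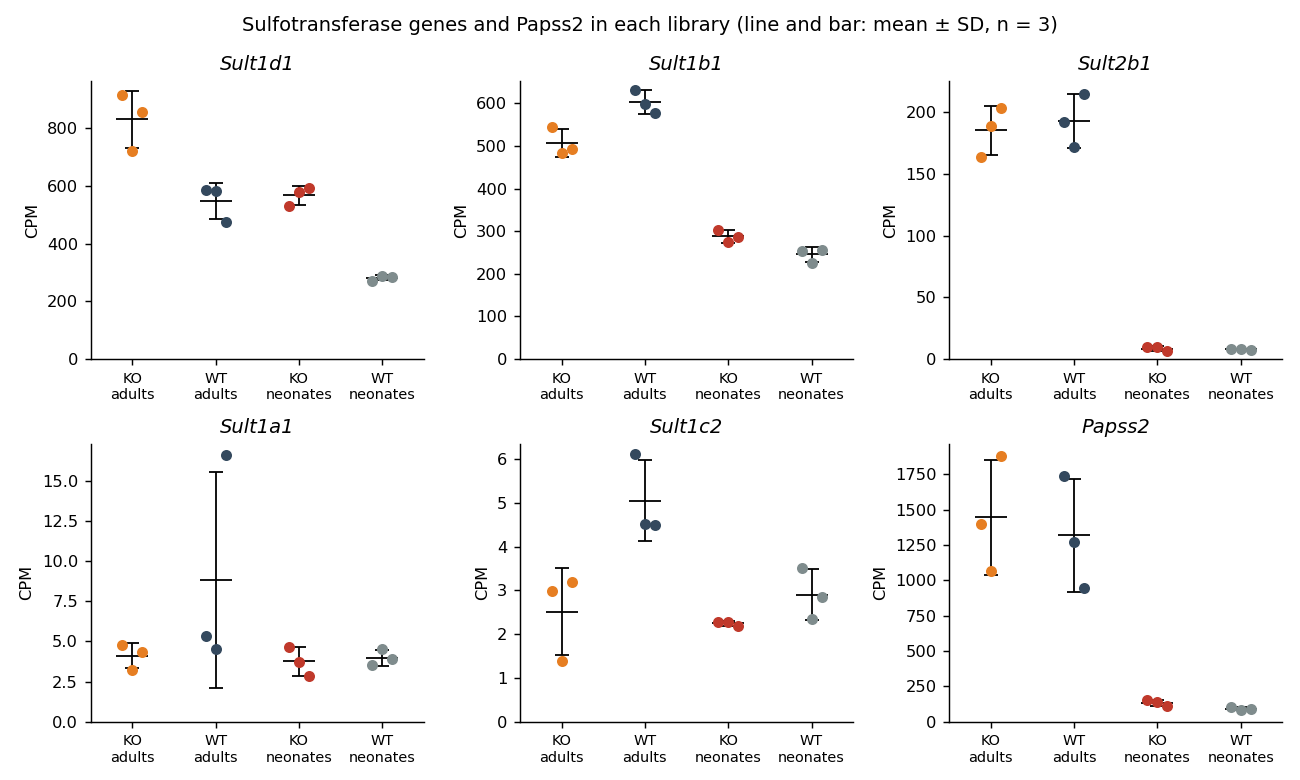
Level of each gene in CPM (y axis, linear from 0) in KO adults, WT adults, KO neonates and WT neonates (x axis). Points are the 3 libraries of a group, and the line and bar are their mean ± SD. Sult1d1 is higher in every KO library than in every WT library of the same age, whereas Sult2b1 and Papss2 separate by age.

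Sult1d1 sulfonates dopamine and other catecholamines and small phenols in the mouse, and its human counterpart is a pseudogene. It lies on chromosome 5 (mm9, 87983675 to 87998031, minus strand), between Sult1b1 and Sult1e1, the estrogen sulfotransferase. Its level was 917, 723 and 857 CPM in KO adults, against 586, 583 and 475 CPM in WT adults. It was 532, 579 and 594 CPM in KO neonates, against 272, 289 and 285 CPM in WT neonates. The groups did not overlap at either age, with KO above WT throughout, as for 10.4% of all genes tested in adults and 8.62% in neonates.

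The log2 difference of Sult1d1 was 0.60 ± 0.109 (SE) in adults, with a 95% interval of 0.37 to 0.84 and a limma adjusted p of 0.00267. In neonates it was 1.01 ± 0.0544 (SE), with an interval of 0.89 to 1.12 and a limma adjusted p of 5.35e-11. Both calls held under every alternative scaling, filter, tool and left-out library, and with TMM factors the differences were 0.71 in adults and 1.12 in neonates. The authors' deposited table gives Sult1d1 a false discovery rate of 5.21e-06 in adults and 7.35e-40 in neonates. The KO effect in adults minus that in neonates was -0.41 ± 0.125 (SE), with an interval of -0.67 to -0.14 and a limma adjusted p of 0.0672, and it was not called. Without KO adults replicate 1 that adjusted p was 0.0267, without WT adults replicate 3 it was 0.00728, and with DESeq2 it was 0.044.

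Sult1b1 acts on thyroid hormones and small phenols and is a characteristic sulfotransferase of the gut. It lies on chromosome 5 (mm9, 87942364 to 87967220, minus strand), 16454 bases from Sult1d1 and in the same orientation. Its level was 544, 485 and 492 CPM in KO adults, against 632, 599 and 577 CPM in WT adults. It was 304, 274 and 286 CPM in KO neonates, against 254, 226 and 256 CPM in WT neonates. The groups did not overlap at either age, but the KO libraries lay below the WT libraries in adults and above them in neonates. Over all genes tested, 27.8% were apart with KO lower in adults and 8.62% with KO higher in neonates.

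The log2 difference of Sult1b1 was -0.25 ± 0.0824 (SE) in adults (limma adjusted p = 0.0485). That call was the least firm of the set: it was lost with TMM factors (-0.14, adjusted p = 0.283), edgeR (0.285), DESeq2 (0.368), deposited RPKM (0.51) and no filter on low values (0.067). It was also lost without KO adults replicate 2 (0.161) or 3 (0.163) and without WT adults replicate 1 (0.146) or 2 (0.121). In neonates the difference was 0.23 ± 0.0603 (SE, limma adjusted p = 0.00916), and that call was lost with deposited RPKM (0.107) and without WT neonates replicate 2 (0.0728). Sult1b1 has a false discovery rate of 0.834 in adults and 0.00238 in neonates in the authors' own deposited comparison. The difference between the ages was firmer than either effect, with a KO effect in adults minus that in neonates of -0.48 ± 0.0991 (SE), an interval of -0.69 to -0.27 and a limma adjusted p of 0.0053. It was called under each alternative run for it (TMM factors, a pseudocount of 0.25, no filter, edgeR and DESeq2), and with adjusted p from 0.00233 to 0.0251 as libraries were left out one at a time. Deposited RPKM was not run for this difference, and with it neither single-age Sult1b1 effect was called. Among all 14588 genes tested for this difference, 5.46% were called, 3.02% higher and 2.44% lower in adults, and Sult1b1 was the 1 called gene of the 6.

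Because Sult1d1 and Sult1b1 lie side by side and responded differently, their 250 bases upstream of the annotated start are shown together with those of Sult1e1, the next gene of the cluster, which was almost unread here. Sequences are from the mm9 genome, 5' to 3' on the gene's strand (minus), in lower case. Capitals mark the nuclear receptor half-site consensus AGGTCA and its close variants, which are AGTTCA as the first, then GGGTCA as another, and GGTTCA, searched on both strands. No match overlaps another.
Sult1d1, chr5:87998032-87998281: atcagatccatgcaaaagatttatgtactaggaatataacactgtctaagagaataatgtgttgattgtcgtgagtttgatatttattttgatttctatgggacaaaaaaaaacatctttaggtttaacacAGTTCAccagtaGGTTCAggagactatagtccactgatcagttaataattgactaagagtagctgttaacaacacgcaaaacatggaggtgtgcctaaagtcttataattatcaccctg
Sult1b1, chr5:87967221-87967470: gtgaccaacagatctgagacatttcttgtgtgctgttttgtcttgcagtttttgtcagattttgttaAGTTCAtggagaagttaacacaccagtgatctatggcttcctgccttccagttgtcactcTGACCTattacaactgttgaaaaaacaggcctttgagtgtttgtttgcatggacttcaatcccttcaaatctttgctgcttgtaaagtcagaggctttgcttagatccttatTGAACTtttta
Sult1e1, chr5:88020637-88020886: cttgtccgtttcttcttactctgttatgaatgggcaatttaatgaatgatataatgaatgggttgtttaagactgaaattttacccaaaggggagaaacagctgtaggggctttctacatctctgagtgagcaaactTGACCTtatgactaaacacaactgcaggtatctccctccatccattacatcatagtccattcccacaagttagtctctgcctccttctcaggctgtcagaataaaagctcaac
The Sult1d1 window holds 2 half-sites, AGTTCA at -119 to -114 and GGTTCA at -107 to -102 relative to the start, both as printed. The Sult1b1 window holds 3, AGTTCA at -183 to -178, AGGTCA in reverse complement at -123 to -118 and AGTTCA in reverse complement at -11 to -6. The Sult1e1 window holds 1, AGGTCA in reverse complement at -113 to -108. At least 1 of these half-sites occurs in 36% of 23882 windows of the same length, so a match is common, and it is a description of letters only. The windows of Sult1a1, Sult1c2, Sult2b1 and Papss2 hold none. The Sult1d1, Sult1b1, Sult1a1 and Sult1c2 windows hold 2, 0, 0 and 4 CpG dinucleotides, against 12 for Sult2b1, 24 for Papss2 and a median of 9 over all windows. TATAAA, present in 12% of windows, was found in none of the 6 genes' windows.

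The ratio of Sult1d1 to Sult1b1 within a library does not depend on how libraries are scaled. Per kilobase of exon it was 1.83, 1.62 and 1.90 in KO adults, against 1.01, 1.06 and 0.895 in WT adults. It was 1.90, 2.30 and 2.26 in KO neonates, against 1.16, 1.40 and 1.21 in WT neonates. The 6 KO libraries all lay above the 6 WT libraries, whatever the age. In WT adults the 2 genes stood at the same level per kilobase, 230 ± 26.6 for Sult1d1 and 232 ± 10.7 for Sult1b1 (CPM per kb, SD, n = 3).

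**Figure D2:**
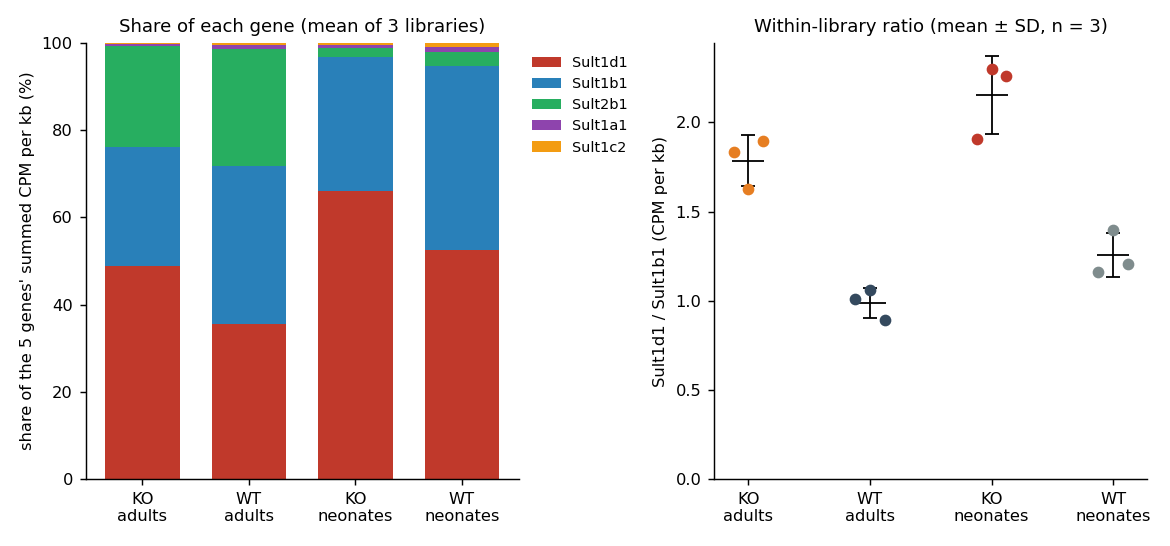
Left, the mean share of each gene in the summed level of the 5 sulfotransferases (y axis, percent of CPM per kb) in KO adults, WT adults, KO neonates and WT neonates. Right, the ratio of Sult1d1 to Sult1b1 (CPM per kb) in each library, with mean ± SD over 3 libraries. The Sult1d1 share is larger in KO than in WT at both ages, and the Sult2b1 share is visible mainly in adults.

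Sult2b1 sulfonates hydroxysteroids, including cholesterol and pregnenolone. It lies on chromosome 7 (mm9, 52985353 to 53014925, minus strand). Its level was 164, 189 and 203 CPM in KO adults, against 192, 172 and 215 CPM in WT adults. It was 9.60, 9.50 and 6.24 CPM in KO neonates, against 8.20, 8.24 and 7.70 CPM in WT neonates. The genotypes overlapped at both ages, while every adult library was far above every neonatal one. The mean was 24.0-fold higher in WT adults than in WT neonates and 21.9-fold higher in KO adults than in KO neonates. The age tables were scaled separately, so levels are set side by side across ages with no test.

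The log2 difference of Sult2b1 between KO and WT was -0.06 in adults, with an interval of -0.28 to 0.16 (limma adjusted p = 0.727), and its sign turned with TMM factors (0.05). In neonates it was 0.04, with an interval of -0.29 to 0.37 (limma adjusted p = 0.879). These intervals bound the adult difference more closely than the neonatal one, where 37 to 79 reads per library were counted.

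Papss2 is one of the 2 mammalian PAPS synthases, and its loss in mice is known for a skeletal growth defect. It lies on chromosome 19 (mm9, 32670205 to 32741677, plus strand). Its level was 1396, 1070 and 1877 CPM in KO adults, against 1741, 1273 and 944 CPM in WT adults. It was 153, 140 and 112 CPM in KO neonates, against 105, 85.0 and 87.3 CPM in WT neonates. The adult groups overlapped widely and the neonatal groups did not overlap, with KO higher, as for 8.62% of all genes tested in neonates. Mean levels were 14.3-fold higher in WT adults than in WT neonates and 10.7-fold higher in KO adults than in KO neonates.

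The log2 difference of Papss2 was 0.14 in adults, with an interval of -0.70 to 0.98 (limma adjusted p = 0.8), wide enough to hold the neonatal value. In neonates it was 0.54 ± 0.129 (SE), with an interval of 0.24 to 0.84 and a limma adjusted p of 0.0241, and it was 0.65 with TMM factors. That call was lost without KO neonates replicate 2 (0.093), WT neonates replicate 2 (0.0986) or WT neonates replicate 3 (0.0804), and when all 4 groups were fitted together (0.224). The authors' deposited table gives Papss2 a false discovery rate of 0.78 in adults and 8.25e-08 in neonates. Between ages the effect of KO did not pass the test (-0.40, interval -1.26 to 0.47, limma adjusted p = 0.65).

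**Figure D3:**
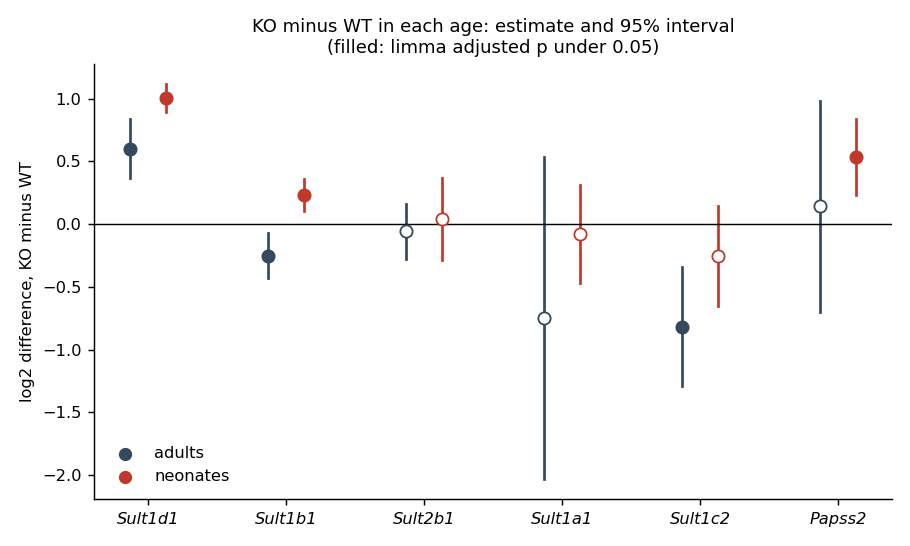
Log2 difference of KO minus WT (y axis) for each gene (x axis), adults beside neonates, with 95% intervals from limma. Filled points have an adjusted p under 0.05. Sult1d1 lies above 0 at both ages, Sult1b1 lies below 0 in adults and above 0 in neonates, and the intervals of Sult2b1 and Sult1a1 cross 0 at both ages.

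Sult1c2, a phenol sulfotransferase of the Sult1c subfamily, was one of the 2 scarce genes. It lies on chromosome 17 (mm9, 53968962 to 53985283, minus strand). Its level was 2.98, 1.38 and 3.19 CPM in KO adults, against 6.12, 4.53 and 4.50 CPM in WT adults. It was 2.27, 2.28 and 2.19 CPM in KO neonates, against 3.52, 2.36 and 2.84 CPM in WT neonates. The KO libraries lay below the WT libraries at both ages, as for 27.8% of all genes tested in adults and 28.3% in neonates. Each library held only 13 to 72 reads of Sult1c2.

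The log2 difference of Sult1c2 was -0.82 ± 0.217 (SE) in adults, with an interval of -1.29 to -0.34 and a limma adjusted p of 0.0211. That call lay close to the threshold: edgeR gave 0.0503, DESeq2 0.0501 and deposited RPKM 0.0822, and it was lost without KO adults replicate 2 (0.0703), WT adults replicate 1 (0.0622) or WT adults replicate 2 (0.0552). The authors' deposited table gives Sult1c2 a false discovery rate of 0.0179 in adults. In neonates the difference was -0.25, with an interval of -0.66 to 0.15 (limma adjusted p = 0.381), and it was not called.

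Sult1a1, a broad phenol sulfotransferase best known in the liver, was the other scarce gene. It lies on chromosome 7 (mm9, 133816384 to 133819871, minus strand). Its level was 4.75, 3.22 and 4.36 CPM in KO adults, against 5.35, 4.53 and 16.6 CPM in WT adults. It was 4.68, 3.73 and 2.87 CPM in KO neonates, against 3.52, 4.50 and 3.91 CPM in WT neonates. The genotypes overlapped at both ages, and WT adults replicate 3 alone stood far above the other 11 libraries.

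The log2 difference of Sult1a1 was -0.75 in adults, with an interval of -2.03 to 0.53 (limma adjusted p = 0.357), and -0.23 without WT adults replicate 3 (adjusted p = 0.4). In neonates it was -0.08 (limma adjusted p = 0.809) and 0.01 with TMM factors. The same WT adult library held 607 CPM of Car1, carbonic anhydrase 1, a gene best known in the gut from the colon. Car1 was at 16.0, 0.689 and 0.252 CPM in KO adults and at 1.36 and 0.178 CPM in the other WT adults, and at most 0.12 CPM in any neonatal library. Its part in the Sult1a1 value was not tested.

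**Figure D4:**
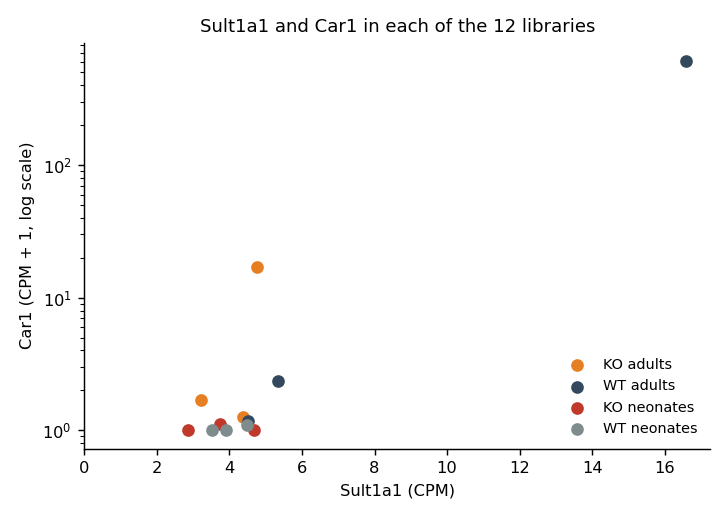
Sult1a1 (x axis, CPM) against Car1 (y axis, CPM + 1, log scale) in each of the 12 libraries, coloured by group. WT adults replicate 3 lies apart at 16.6 CPM of Sult1a1 and 607 CPM of Car1, and the other 11 libraries have at most 5.35 CPM of Sult1a1.

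Counting whether libraries of KO and WT overlap at all, 3 of the 6 genes were apart in adults, 1 with KO higher and 2 with KO lower, where 10.4% and 27.8% of tested genes were apart in these directions, 38.3% in all. In neonates 4 were apart, 3 with KO higher and 1 with KO lower, where 8.62% and 28.3% of tested genes were, 36.9% in all.

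Levels of different genes were compared per kilobase of exon, as CPM per kb. In KO adults the order was Papss2 (404 ± 113), Sult1d1 (349 ± 41.6), Sult1b1 (195 ± 12.5), Sult2b1 (164 ± 17.8), Sult1a1 (3.02 ± 0.587) and Sult1c2 (1.73 ± 0.681). In WT adults Papss2 (368 ± 112) came before Sult1b1 and Sult1d1, which did not differ beyond their spread, then Sult2b1 (171 ± 19.2), Sult1a1 (6.48 ± 4.94) and Sult1c2 (3.47 ± 0.637), the last 2 overlapping. Papss2 and Sult1d1 also overlapped in KO adults. In both neonatal groups the order was Sult1d1, Sult1b1, Papss2, Sult2b1, Sult1a1 and Sult1c2. Sult1d1 stood at 238 ± 13.6 in KO neonates and 118 ± 3.80 in WT neonates, and Papss2 at 37.6 ± 5.89 in KO neonates and 25.7 ± 2.98 in WT neonates. Among all genes of a table, Sult1d1 ranked at place 196 in KO adults, 291 in WT adults, 216 in KO neonates and 485 in WT neonates by this level.

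The summed level of the 5 sulfotransferases was 714 ± 45.9 CPM per kb in KO adults, 643 ± 22.0 in WT adults, 361 ± 7.37 in KO neonates and 225 ± 4.67 in WT neonates. Sult1d1 made up 48.8% of it in KO adults, 35.7% in WT adults, 66.0% in KO neonates and 52.6% in WT neonates. Sult1b1 made up 27.4% in KO adults, 36.1% in WT adults, 30.8% in KO neonates and 42.0% in WT neonates. Sult2b1 made up 23.1% in KO adults and 26.6% in WT adults, but 2.08% in KO neonates and 3.18% in WT neonates. The mix therefore had 3 major enzymes in adults and 2 in neonates, with Sult1a1 and Sult1c2 together under 3% in each group. The shares are of RNA only.

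Across the 12 libraries, Sult1b1, Sult2b1 and Papss2 had similar patterns (Pearson r on log2(CPM + 1) of 0.964 for Sult1b1 with Sult2b1, 0.97 for Sult1b1 with Papss2 and 0.983 for Sult2b1 with Papss2). Sult1d1 had r = 0.676 with Sult1b1, 0.648 with Sult2b1 and 0.736 with Papss2. These values describe libraries that fall into 2 separately scaled ages. The genes most like Sult1d1 were Cyp3a25, a cytochrome P450 of the Cyp3a family (r = 0.988), and Lmo7 (r = 0.972). Cyp3a25 averaged 632 CPM in KO adults and 236 CPM in WT adults, and 298 CPM in KO neonates and 62.1 CPM in WT neonates. Those most like Sult1b1 were Slc6a20a and Cyp4v3 (r = 0.994 for each), those most like Sult2b1 were Ralgps2 and Tesk2 (r = 0.998 for each), and those most like Papss2 were Phyh (r = 0.996) and Reg3g (r = 0.995). Sult1c2 was most like Ephx2 (r = 0.923) and Ptgr2 (r = 0.904), and Sult1a1 was most like Car1 (r = 0.902) and Selenbp1 (r = 0.851). The highest value of both Sult1a1 and Car1 was in WT adults replicate 3, and Selenbp1 may share reads with its near copy Selenbp2.

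The other cytosolic sulfotransferases were nearly unread. Of 17 listed, 14 were in the tables, and 13 of these stayed at or below 0.506 CPM in every library, among them Sult1e1, Sult1c1 and the hydroxysteroid enzymes Sult2a1 to Sult2a7, near copies whose reads could be split between them. Sult4a1, a brain-enriched member, was the only one tested, in neonates, at 1.81 ± 0.412 CPM in KO neonates and 2.53 ± 1.43 CPM in WT neonates (limma adjusted p = 0.481).

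The genes that make, move and break down PAPS, other than Papss2, gave 5 tested genes at each age. Of these, 0 were called higher and 2 lower in KO adults, and 0 higher and 1 lower in KO neonates. The shares over all genes tested were 5.5% higher and 13.9% lower in KO adults, and 5.21% and 16% in KO neonates. Median log2 differences of the 5 genes were -0.09 in adults and -0.19 in neonates, beside -0.11 for all genes. Papss1, the second PAPS synthase, was 61.6 ± 8.40 CPM in KO adults and 81.5 ± 3.29 CPM in WT adults (log2 difference -0.41, limma adjusted p = 0.0126). It was 127 ± 6.16 CPM in KO neonates and 153 ± 13.3 CPM in WT neonates (-0.27, adjusted p = 0.00677). Neither call held with TMM factors (0.0785 in adults, 0.114 in neonates), and the neonatal one was lost without WT neonates replicate 2 (0.0501). Impad1, a PAP phosphatase of the Golgi, was 89.9 ± 10.5 CPM in KO adults and 121 ± 14.5 CPM in WT adults (-0.43, adjusted p = 0.0144), and was not called without KO adults replicate 3 (0.0764) or WT adults replicate 2 (0.063). The Golgi PAPS transporters Slc35b2 and Slc35b3 and the cytosolic phosphatase Bpnt1 were not called at either age.

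The share of Papss2 in the 2 synthases, per kilobase, was 95.1%, 91.9% and 95.4% in KO adults, against 94.1%, 92.0% and 88.9% in WT adults. It was 47.5%, 43.0% and 39.3% in KO neonates, against 35.2%, 27.1% and 28.7% in WT neonates. Papss2 thus predominated in adults of both genotypes, Papss1 in neonates of both, and the KO neonates lay between, without overlapping WT neonates.

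Sulfate transporters showed 3 genes higher and 1 lower of 5 tested in KO adults and 3 higher and 1 lower of 6 tested in KO neonates, with median log2 differences of 0.31 and 0.18 beside -0.11 for all genes. Of all genes tested, 5.5% were called higher and 13.9% lower in KO adults, and 5.21% and 16% in KO neonates. With TMM factors the counts were 3 and 0 in adults and 3 and 1 in neonates. Slc13a1, the sodium-coupled sulfate carrier of kidney and gut, was 911, 832 and 906 CPM in KO adults, against 706, 557 and 561 CPM in WT adults. It was 13.5, 7.70 and 6.24 CPM in KO neonates, against 1.76, 1.07 and 2.01 CPM in WT neonates. Every KO library was above every WT library of its age, and adults were far above neonates. Of all genes tested, 10.4% were apart with KO higher in adults and 8.62% in neonates. The log2 difference was 0.55 ± 0.0999 (SE) in adults (limma adjusted p = 0.00258; 0.157 when all 4 groups were fitted together) and 1.91 ± 0.236 (SE) in neonates (adjusted p = 2.35e-05), and the difference between the ages was not called (-1.36, adjusted p = 0.0647).

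Slc26a2, a sulfate and chloride exchanger, averaged 255 ± 8.65 CPM in KO adults and 194 ± 7.05 CPM in WT adults, and 115 ± 4.31 CPM in KO neonates and 84.7 ± 8.82 CPM in WT neonates (log2 differences 0.40 and 0.44, limma adjusted p = 0.00324 and 0.000184). Slc26a6, an exchanger of chloride, oxalate, bicarbonate and sulfate, averaged 531 ± 31.3 CPM in KO adults and 428 ± 8.18 CPM in WT adults, and 74.2 ± 9.36 CPM in KO neonates and 49.5 ± 5.26 CPM in WT neonates (0.31 and 0.57, adjusted p = 0.0163 and 0.000367). The adult Slc26a6 call was lost without KO adults replicate 2 (0.0701), KO adults replicate 3 (0.0743) or WT adults replicate 2 (0.0517). Slc26a3, mainly a chloride and bicarbonate exchanger, averaged 188 ± 10.9 CPM in KO adults and 242 ± 13.5 CPM in WT adults, and 127 ± 5.01 CPM in KO neonates and 165 ± 4.83 CPM in WT neonates (-0.36 and -0.38, adjusted p = 0.00799 and 8.52e-05). With TMM factors the adult Slc26a3 difference was not called (0.0687). Slc26a11 was not called at either age, nor was Slc13a4 in neonates, where alone it was tested.

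**Figure D5:**
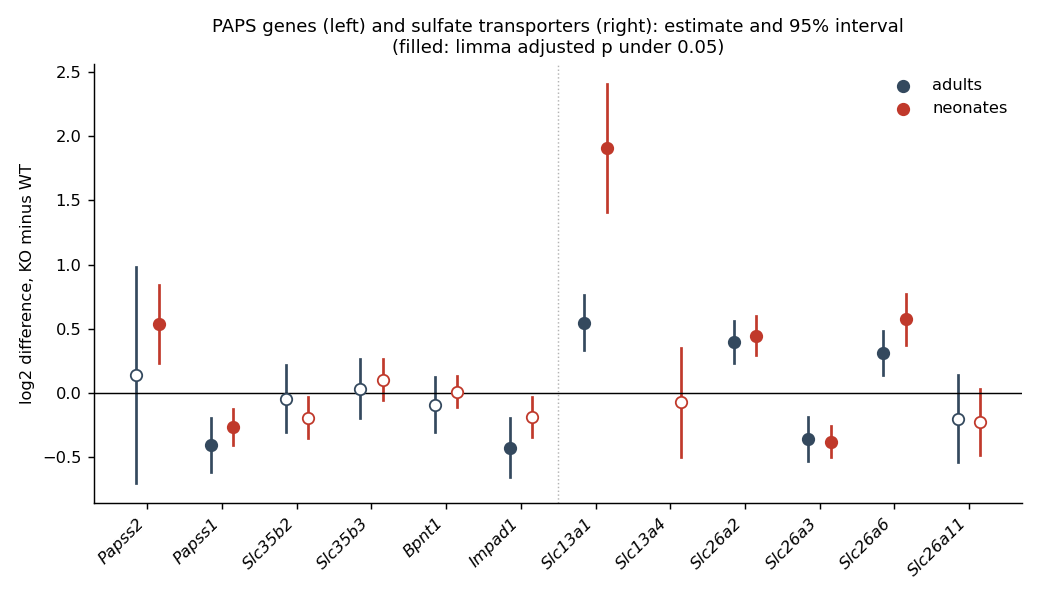
Log2 difference of KO minus WT (y axis) with 95% intervals for genes of PAPS metabolism (left of the dotted line) and sulfate transporters (right), adults beside neonates. Filled points have a limma adjusted p under 0.05. Slc13a1, Slc26a2 and Slc26a6 lie above 0 and Slc26a3 and Papss1 below 0 at both ages.

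Enzymes that oxidise cysteine and sulfide toward sulfate moved in both directions. In KO adults 2 of 7 tested were called higher, Got1 and Sqrdl, and 1 lower, Mpst. In KO neonates 1 was called higher, Got1, and 3 lower, Sqrdl, Tst and Mpst. With TMM factors these counts were 2 and 0 in adults and 1 and 1 in neonates. In the main test 5.5% of all genes tested were called higher and 13.9% lower in KO adults, and 5.21% and 16% in KO neonates. The list medians in that test were -0.03 in adults and -0.27 in neonates, beside -0.11 for all genes. Sqrdl, the mitochondrial sulfide quinone oxidoreductase, was 190, 172 and 185 CPM in KO adults, against 153, 151 and 152 CPM in WT adults. It was 54.5, 50.0 and 50.9 CPM in KO neonates, against 64.4, 68.3 and 56.1 CPM in WT neonates. KO lay above WT in adults and below it in neonates, as for 10.4% and 28.3% of all genes tested. The KO effect in adults minus that in neonates was 0.53 ± 0.105 (SE, limma adjusted p = 0.00385, and at most 0.0171 without any 1 library). Sqrdl was counted over a different exon length at each age, and the part of this in that difference was not tested. Its single-age calls were weaker: 0.26 in adults (adjusted p = 0.0284, but 0.0512 to 0.101 without KO adults replicate 1 or 3 or any 1 WT adult library) and -0.27 in neonates (0.0178, but 0.134 with TMM factors and 0.0591 to 0.106 without KO neonates replicate 2 or 3 or WT neonates replicate 1 or 2).

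Tst, the sulfurtransferase rhodanese, was 10.9, 7.73 and 9.65 CPM in KO adults, against 8.84, 10.6 and 14.2 CPM in WT adults, and was not called (-0.22, limma adjusted p = 0.394). It was 10.2, 5.53 and 5.56 CPM in KO neonates, against 14.1, 14.7 and 11.6 CPM in WT neonates (-0.88, limma adjusted p = 0.00493), and this call held without any 1 library and with TMM factors. Got1, an aspartate aminotransferase that also acts on cysteine sulfinate, differed by 0.42 in adults (limma adjusted p = 0.0124, but 0.0564 without KO adults replicate 2 and 0.0623 without WT adults replicate 2). In neonates Got1 differed by 0.26 (limma adjusted p = 0.0437), a call lost without KO neonates replicate 1 (0.0643), KO neonates replicate 2 (0.23), WT neonates replicate 2 (0.133) or WT neonates replicate 3 (0.116), and with deposited RPKM (0.227), no filter (0.0661) or all 4 groups together (0.0824). Mpst, a mercaptopyruvate sulfurtransferase, differed by -0.49 in adults (limma adjusted p = 0.0255) and -0.52 in neonates (0.0196), and neither call held with TMM factors (0.0988 in adults, 0.0696 in neonates). Leaving out 1 library gave Mpst 0.0903 without KO adults replicate 1, 0.0989 without KO adults replicate 2, 0.0696 without WT adults replicate 1 and 0.0527 without WT adults replicate 3. In neonates it gave 0.0996 without KO neonates replicate 1, 0.0771 without WT neonates replicate 1 and 0.0683 without WT neonates replicate 3. Suox, the sulfite oxidase that makes sulfate, averaged 76.9 ± 14.5 CPM in KO adults and 77.7 ± 7.90 CPM in WT adults, and 7.25 ± 0.634 CPM in KO neonates and 7.49 ± 1.17 CPM in WT neonates, with no call.

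Sulfatases, which remove sulfate, and their activators had 0 called higher and 2 lower of 12 tested in KO adults, and 1 higher and 4 lower of 14 tested in KO neonates, against 1 higher and 1 lower at each age with TMM factors. The medians were -0.02 in adults and -0.24 in neonates, beside -0.11 for all genes. Ids, the lysosomal iduronate sulfatase, was the firmest in neonates, at 25.0 ± 2.55 CPM in KO neonates and 38.7 ± 4.34 CPM in WT neonates (log2 difference -0.61, limma adjusted p = 0.000156), and this call held without any 1 library. Its adult difference (-0.36, adjusted p = 0.0189) was not called with TMM factors (0.0725) or without KO adults replicate 2 (0.0759), KO adults replicate 3 (0.0827) or WT adults replicate 2 (0.0624). Arsk differed by -0.79 in adults (limma adjusted p = 0.0118), also called with TMM factors (0.0218). That call was lost with deposited RPKM (0.0685) and without KO adults replicate 3 (0.0641) or WT adults replicate 2 (0.0596). By limma adjusted p in neonates, Arsk (-0.34, 0.0455), Arsa (-0.33, 0.0137) and Sgsh (-0.39, 0.041) were called lower, but not with TMM factors. Galns was called higher there (0.22, 0.0414), but not in 3 of 6 fits that left out 1 library. Golgi sulfotransferases, which act on proteins, lipids and sugar chains, had 1 called higher of 19 tested in KO adults, Ndst1. In KO neonates 2 of 24 were called lower, Hs2st1 (-0.34) and Gal3st1 (-0.41). Neither neonatal call held with DESeq2 (adjusted p = 0.138 for Hs2st1 and 0.0876 for Gal3st1). The Golgi medians were -0.12 in adults and -0.15 in neonates, beside -0.11 for all genes. For both lists, the all-gene shares were 5.5% called higher and 13.9% lower in KO adults, and 5.21% and 16% in KO neonates.

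Among 11 nuclear receptors known to act on sulfotransferase genes, 4 were called higher and 2 lower in KO adults, and 3 higher and 2 lower in KO neonates (4 and 1, and 4 and 2, with TMM factors). Over all genes tested, 5.5% were called higher and 13.9% lower in KO adults, and 5.21% and 16% in KO neonates. The medians were 0.06 in adults and -0.03 in neonates, beside -0.11 for all genes. Ppara, the fatty acid receptor, averaged 266 ± 41.5 CPM in KO adults and 117 ± 18.6 CPM in WT adults, and 93.1 ± 13.4 CPM in KO neonates and 46.8 ± 5.08 CPM in WT neonates (log2 differences 1.17 and 0.97, limma adjusted p = 0.000782 and 1.39e-05). Nr1i2, the pregnane X receptor, averaged 160 ± 12.3 CPM in KO adults and 111 ± 11.1 CPM in WT adults, and 158 ± 11.2 CPM in KO neonates and 110.0 ± 6.53 CPM in WT neonates (0.52 at both ages, adjusted p = 0.00192 and 9.53e-06). Nr1h3, an oxysterol receptor, averaged 30.2 ± 3.55 CPM in KO adults and 52.6 ± 0.940 CPM in WT adults, and 15.7 ± 0.711 CPM in KO neonates and 23.6 ± 2.06 CPM in WT neonates (-0.78 and -0.55, adjusted p = 0.000173 and 0.000677). Rxra was called lower in neonates (-0.40, limma adjusted p = 0.000116) and not called in adults (0.02, 0.876). Ppara, Nr1i2, Nr1h3 and the neonatal Rxra kept their calls with TMM factors and without any 1 library. Nr1h4 differed by 0.49 in adults (limma adjusted p = 0.00254), and that call also held with TMM factors and without any 1 library. In neonates Nr1h4 differed by 0.23 (limma adjusted p = 0.00752), a call lost without KO neonates replicate 3 (0.0545) and with deposited RPKM (0.117).

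Markers of other cell types moved beside these results. Of all genes tested, 5.5% were called higher and 13.9% lower in KO adults, and 5.21% and 16% in KO neonates. In KO adults, 3 of 6 Paneth cell markers were called lower, with sums of 7336 to 9654 CPM in KO adults and 11230 to 14030 CPM in WT adults, and 3 of 7 goblet cell markers were called lower (2 with TMM factors), with sums of 8511 to 9363 CPM in KO adults and 10130 to 11140 CPM in WT adults. Fibroblast markers summed to 349 to 364 CPM in KO adults and 444 to 590.0 CPM in WT adults, with 3 of 6 called lower. Enteroendocrine markers summed to 188 to 223 CPM in KO adults and 249 to 251 CPM in WT adults, with 1 of 6 called lower, and to 227 to 266 CPM in KO neonates and 284 to 297 CPM in WT neonates, with 2 of 6 called lower (1 with TMM factors). In KO neonates 7 of 9 enterocyte markers were called higher and 2, Apoa4 and Lct, lower (7 and 0 with TMM factors). Their sums, in which Apoa4 was the largest part, overlapped between genotypes. In KO adults 1 of the 9, Fabp1, was called higher and 1, Lct, lower (1 and 1 with TMM factors). For the KO effect in adults minus that in neonates, 0 of the 9 were called higher and 4 lower (0 and 2 with TMM factors). The median of that difference was -0.29, beside 0.0035 for all genes. Immune cell markers summed to 181 to 222 CPM in KO neonates and 288 to 322 CPM in WT neonates, with 3 of 5 called lower (1 with TMM factors). Proliferating crypt cell markers summed to 717 to 753 CPM in KO neonates and 773 to 835 CPM in WT neonates, with 2 of 5 called lower (1 with TMM factors), and 3 of 6 fibroblast markers were called lower in KO neonates (0 with TMM factors). No Paneth, goblet, enteroendocrine, crypt, fibroblast or immune marker was at 0 in any group. Their part in the sulfotransferase values was not tested.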

How the data were processed

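Libraries were stranded mRNA libraries run for 36 cycles, per the labels' protocols. Reads were aligned with Bowtie 0.12.2 to mm9, per the submitters' processing notes, and HOMER tallied exon reads of each gene on 1 strand, per the file headers. How reads matching several places were treated is not stated in those notes or headers. Per the file headers, each age has 1 deposited table (23954 genes in adults, 23333 in neonates) with a signal column of reads scaled to an equal total, an RPKM column, a log2 fold change and p-values with false discovery rates. By its values the deposited log2 fold change runs WT minus KO in the adult table, and the authors' false discovery rates are quoted as deposited.

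Whole reads were recovered from the scaled signal: 100% of values were whole multiples of 1 step per library within 0.01 deposited units. In WT adults replicate 1 that step was 0.994, close to 1, so whole multiples are weaker evidence of recovered reads there. These reads were used for count tools only as alternatives. The design named edgeR as the main test only for unnormalized counts, so the main test was limma 3.58.1 (R 4.3.3, trended, robust) on log2(CPM + 1), for genes reaching 1 CPM in 3 or more libraries, with Benjamini-Hochberg adjustment over all genes. Differences are on that scale, which understates changes of low genes. Each age was fitted alone, and the difference of KO effects in 1 fit of all 4 groups. Exon lengths were the same at both ages for 94.3% of genes present at both, including the 6 members. For Sqrdl and Slc26a3 the length differed. Alternatives were TMM factors, deposited RPKM, a pseudocount of 0.25, no filter, edgeR 4.0.16, DESeq2 1.42.0, a replicate block, all 4 groups together and each library left out. Tests were checked on simulated data with balanced changes in both directions and a fixed spread for all genes. That check does not cover the uneven shift between scalings or the spread between these pools. No pair of libraries agreed within counting noise, and p-values measure the spread between pools. Shared exact 36-base stretches with other coding transcripts were 0 for the 5 sulfotransferases and 2 of 3600 for Papss2.

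The genes, pathway lists and marker lists were chosen with earlier results of these data known. Genes named were the 6 members, Ncor1, in each pathway list and age every called gene up to 4 (otherwise the 4 with the lowest adjusted p), and the 2 genes most correlated with each member. Suox, Sult4a1 and other uncalled list members were named after their values were seen. Promoter windows were read from the mm9 genome upstream of the tables' gene ends.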

Additional observations from a re-analysis of the deposited data

Results flagged for a closer look

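The KO effect on Sult1b1 differed between ages: -0.25 in adults and 0.23 in neonates on the log2 scale, a difference of -0.48 (interval -0.69 to -0.27, limma adjusted p = 0.0053). All 3 KO libraries lay below all 3 WT libraries in adults and above them in neonates. Of all genes tested, 27.8% were apart with KO lower in adults, and 8.62% with KO higher in neonates. The adult Sult1b1 call was lost with TMM factors (limma adjusted p = 0.283), edgeR, DESeq2 and deposited RPKM. It was also lost in 4 of 6 fits that left out 1 library, and the neonatal call in 1 of 6. The KO effect on Sqrdl differed in the opposite sense, by 0.53 (limma adjusted p = 0.00385), with 3 of 3 KO libraries above the WT libraries in adults and 3 of 3 below them in neonates. Of all genes tested, 10.4% were apart with KO higher in adults, and 28.3% with KO lower in neonates. The single-age Sqrdl calls were lost in 5 of 6 fits that left out 1 library in adults and 4 of 6 in neonates. Sqrdl was also counted over a different exon length at each age. Rxra differed by 0.42 (limma adjusted p = 0.0186; 0.0618 without KO adults replicate 3), averaging 154 CPM in KO adults and 151 CPM in WT adults, and 77.8 CPM in KO neonates and 103 CPM in WT neonates. Ndst1 differed by 0.35 (limma adjusted p = 0.0438), averaging 111 CPM in KO adults and 85.1 CPM in WT adults, and 165 CPM in KO neonates and 162 CPM in WT neonates, and that call was lost in 9 of 12 fits that left out 1 library (up to 0.112). Ncor1 itself differed by 0.39 (limma adjusted p = 0.0128), with a log2 difference of -0.58 in adults and -0.97 in neonates.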

How the results depend on the processing

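No difference of the 6 genes that was called reversed under any alternative. All genes called higher and lower in KO adults numbered 741 and 1870, against 1250 and 911 with TMM factors, 1243 and 917 with edgeR, 1107 and 684 with DESeq2 and 706 and 413 with deposited RPKM. In KO neonates they numbered 741 and 2268, against 1337 and 1027 with TMM factors, 1358 and 1034 with edgeR, 1015 and 570 with DESeq2 and 436 and 2481 with deposited RPKM. Higher calls thus made up 28.4% of calls in adults and 57.8% with TMM factors, and 24.6% in neonates and 56.6% with TMM factors. The members called lower in adults numbered 1 with TMM factors and 1 with no filter (2 in the main test), and 0 with edgeR, DESeq2 and deposited RPKM. Sult1b1 in adults was -0.14 with TMM factors, edgeR, DESeq2 and deposited RPKM and -0.25 with no filter, none called, and Sult1c2 in adults was -0.51 with deposited RPKM and -0.90 with edgeR and DESeq2, none called. In neonates Sult1b1 was 0.16 with deposited RPKM and Papss2 0.54 with all 4 groups together, neither called. The difference of KO effects on Sult1d1 was -0.41 with DESeq2 and called, which made 2 members called lower there. DESeq2 gave no adjusted p for Sult1a1 and Sult1c2 in neonates or for their difference of effects. Deposited RPKM was not run for the difference of effects. The causes were not tested.

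With each library left out in turn, genes called lower ranged from 844 to 1840 and higher from 437 to 732 in adults, lower from 1426 to 1979 in neonates, and higher from 281 to 598 and lower from 226 to 449 for the difference of effects. Members called lower in adults ranged from 0 to 2, higher in neonates from 1 to 3, and lower for the difference of effects from 1 to 2. Sult1b1 ranged from -0.30 to -0.22 in adults and 0.17 to 0.27 in neonates, Sult1c2 in adults from -0.96 to -0.56, Papss2 in neonates from 0.44 to 0.67, and the difference of effects on Sult1d1 from -0.51 to -0.31.

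In adults, same-numbered KO and WT libraries did not deviate together (correlations of -0.21 to 0.06, against -0.13 to 0.23 between libraries of different number). In neonates the same-numbered correlations were small but all positive (0.03 to 0.16), against -0.18 to 0.04 between libraries of different number. Whether neonatal libraries share a replicate effect was not tested. The main test did not treat the replicate number as pairing libraries at either age. With the replicate block, 669 genes were called higher and 1603 lower in adults, against 741 and 1870 in the main test. In neonates 864 and 2711 were called with the block, against 741 and 2268. With it 1 member was called lower in adults, and Sult1b1 in adults stayed at -0.25 with a limma adjusted p of 0.0659. No other call of the 6 genes changed with the block. The fewest reads limited Sult1c2 and Sult1a1, with 13 and 17 in the shallowest library.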
